A study of Rattus norvegicus with 8 samples.

Results

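The proteasome genes of rat thigh muscle were taken as every probe whose platform gene symbol starts with Psma, Psmb, Psmc, Psmd, Psme, Psmf or Psmg. This rule found 44 probes for 43 genes among the 22523 probes of the array. Psmc3ip, a meiotic recombination factor that shares only the start of its symbol, was one of the 43 and was kept out of all counts below, which leaves 42 proteasome genes. They comprised 16 genes of the core particle, 16 of the regulatory particle, 5 of the immunoproteasome, 4 assembly factors and the activator Psme4. No symbol of Psmd10, Psmd14, Psme3, Psmf1, Psmg3 or Psmg4 was listed for a probe, and these genes were not analysed here. Muscle came from 8 Wistar Han rats, 1 Illumina bead array per rat. Per the labels, 4 control rats ate standard laboratory chow and 4 rats ate a diet with 150 ppm of compound 177, a sulfonyl isoxazoline, over 28 days. The series title places the compound in a study of mitochondrial toxicity in muscle. The labels used here state neither age nor sex, nor whether tissue of several rats was pooled.

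The proteasome degrades proteins tagged with ubiquitin. Its core particle is a barrel of stacked rings: alpha subunits (Psma) form the outer gates, and beta subunits (Psmb) form the inner rings, where Psmb5, Psmb6 and Psmb7 carry the proteolytic sites. The regulatory particle caps the barrel, with ATPases (Psmc) that unfold substrates and non-ATPase subunits (Psmd) that bind and release ubiquitin chains. Interferon induces the alternative catalytic subunits Psmb8, Psmb9 and Psmb10, which replace Psmb5, Psmb6 and Psmb7 in newly built immunoproteasomes, and the activator subunits Psme1 and Psme2 (PA28 alpha and beta), and the peptides made feed antigen presentation. In skeletal muscle the ubiquitin-proteasome system removes contractile protein during wasting.

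Levels below are log2 intensities after background correction and quantile normalization, and each difference subtracts the control mean from the mean of rats fed compound 177 (n = 4 in either group). Each probe was read on its own scale, since the level of one probe cannot be set against that of another. Of the 42 proteasome genes, 40 were detected, each on all 8 arrays. The testis-specific alpha subunit Psma8 and the thymus-specific beta subunit Psmb11 were not well above background on any array and were not tested. The arrays had median intensities of 97.5 to 124.7 and between 9261 and 10620 probes with a detection p below 0.05. The deposited normalized table splits the arrays into set 1 (replicates 1 and 2 of both groups) and set 2 (replicates 3 and 4). The arrays numbered 2 had the lowest quality weights in both groups, 0.572 in control and 0.541 in treated muscle, against 0.958 or more on the others. Of the 9 muscle fibre markers 6 had a probe, and all 6 were detected.

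Most proteasome genes had somewhat higher values in treated muscle, and of the classes the immunoproteasome had the largest median difference. Of the 40 genes, 30 (75%) lay above control and 10 below, with a median difference of 0.088. Over all 10212 tested probes, 53.4% lay above control and the median difference was 0.013. The median was 0.29 for the 5 immunoproteasome genes and 0.082 for the 35 others. No proteasome gene passed the test: with limma 0 of 40 had an adjusted p below 0.05 and 0% of all probes did, with 0.9999 as the smallest adjusted p over all probes. At an unadjusted p below 0.05, 3 of the 40 genes were higher (7.5%) and 0 were lower, where all probes gave 2.26% higher and 1.62% lower. These 3 were Psmb9, Psmc3 and Psmd9, and a fit blocked on replicate number gave the same 3 genes, with 3.55% of all probes higher and 2.88% lower at that level. Without compound 177 replicate 3 the count of higher genes was 6, with 3.04% of all probes higher. It was 1, Psmb9 alone, without control replicate 3 (1.36% of all probes), without compound 177 replicate 2 (1.87%) or with median scaling (0.46%). Leaving out the arrays numbered 2 also gave Psmb9 alone (1.22%). Within set 1 the count was 2 (2.1% of all probes) and within set 2 it was 0 (1.85%). Both within set 1 and within set 2, 22 of the 40 genes (55%) lay above control, beside 30.1% of all probes.

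**Figure D1:**
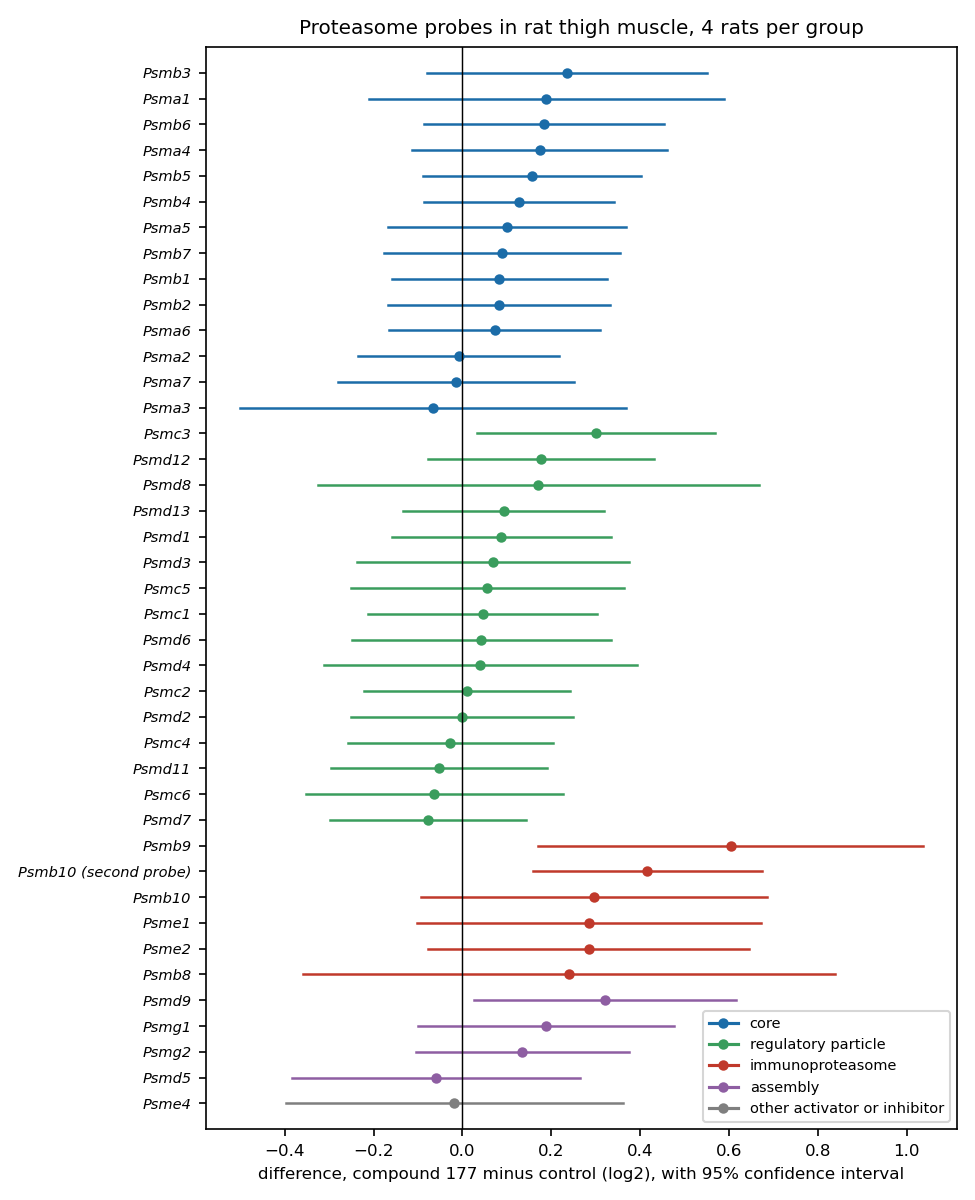
Difference between compound 177 and control (horizontal axis, log2) for each detected proteasome probe (rows, coloured by class). Points are limma estimates and bars their 95% confidence intervals, n = 4 rats per group. Psmb9 has the largest estimate (0.60), and its bar, those of Psmc3 and Psmd9 and that of the second Psmb10 probe do not cross 0.

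Among the immunoproteasome genes, all 5 had a higher mean in treated muscle, also within set 1 and within set 2. Psmb9 (beta1i), the subunit that replaces Psmb6, measured 7.08, 7.34, 7.05 and 6.95 in control replicates 1 to 4 and 7.83, 7.87, 7.13 and 8.003 in treated replicates 1 to 4. Of the treated rats 3 lay above every control, and treated replicate 3 lay inside the control range. The means were 7.71 ± 0.39 (SD, n = 4) and 7.10 ± 0.17, a difference of 0.60 (SE 0.19, 95% confidence interval 0.17 to 1.04), or 1.52-fold. In limma Psmb9 ranked number 57 of the 10212 probes by p, with an unadjusted p of 0.0114 and an adjusted p of 0.9999. Its difference was 0.64 in set 1 and 0.57 in set 2, and between 0.51 and 0.80 with any 1 array left out. Without background correction it was 0.40, and with median scaling the groups no longer overlapped.

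Psmb10 (beta2i), which replaces Psmb7, was read by 2 probes that disagreed in part. The brighter one measured 10.74, 10.43, 10.36 and 10.34 in control muscle and 10.80, 11.18, 10.40 and 10.69 in treated muscle. The groups overlapped, and the difference was 0.30 (SE 0.17, adjusted p = 0.9999 with limma). Without treated replicate 2 it was 0.16, and without the arrays numbered 2 of both groups, a setting chosen after the data were seen, 0.15. The second probe measured 7.67, 7.91, 7.67 and 7.88 in control rats and 8.04, 8.27, 8.18 and 8.31 in treated rats. There every treated rat lay above every control, which held for 1.7% of all probes. Its difference was 0.42 (SE 0.11), with an unadjusted p of 0.0052, number 22 of all probes, and an adjusted p of 0.9999. With median scaling the groups of this probe overlapped. The sequences of the probes were not used here, so the part of the transcript that each reads is not stated.

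Psmb8 (beta5i), which replaces Psmb5, varied more between control rats than the other immunoproteasome genes, from 7.78 in control replicate 3 to 8.98 in control replicate 2. Treated rats measured 8.45, 9.26, 8.59 and 8.55, of which 1 lay above that range. The difference of 0.24 (SE 0.27) was smaller than the control SD of 0.51. It was 0.0082 without control replicate 3, 0.057 without treated replicate 2 and 0.41 without control replicate 2. Psme1 measured 11.88, 11.56, 11.47 and 11.77 in control muscle and 12.17, 12.28, 11.63 and 11.75 in treated muscle. Treated replicates 1 and 2 lay above every control and replicates 3 and 4 among them, so the difference of 0.29 (SE 0.17) was 0.50 in set 1 and 0.067 in set 2. Psme2, the partner of Psme1 in the same ring, measured 8.64, 8.51, 8.18 and 8.40 in control and 8.66, 9.08, 8.43 and 8.69 in treated muscle. Its difference was 0.28 (SE 0.16), with 0.30 in set 1 and 0.27 in set 2, and the groups overlapped. Without treated replicate 2 the difference was 0.18 for Psme1 and 0.16 for Psme2, and without the arrays numbered 2 it was 0.14 and 0.19. None of Psmb8, Psme1 and Psme2 passed, at an adjusted p of 0.9999 with limma.

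**Figure D2:**
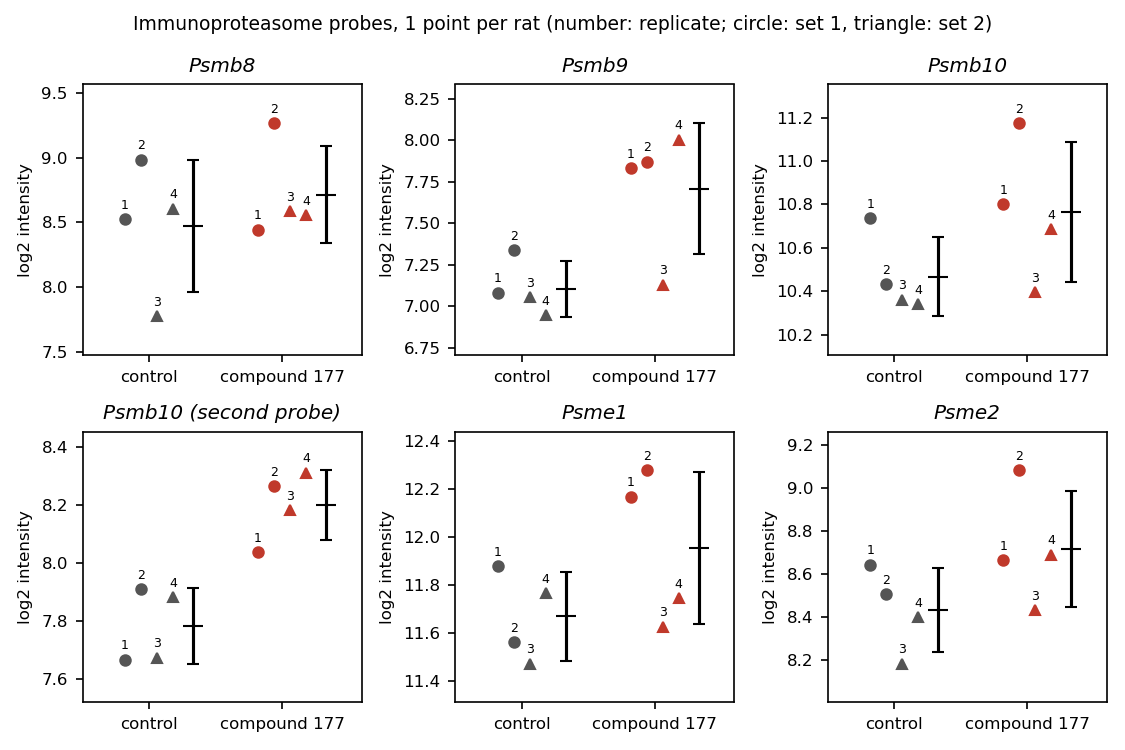
Log2 intensity (vertical axes, one scale per probe) of the 6 immunoproteasome probes in control and compound 177 rats. Each point is a rat with its replicate number, circles are set 1 and triangles set 2, and the bars give mean ± SD (n = 4). Treated replicate 2 is the highest treated rat for Psmb8, the brighter Psmb10 probe, Psme1 and Psme2, and treated replicate 3 lies near the controls for Psmb9.

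The immunoproteasome genes tended to be high or low on the same arrays. Averaged over the 5 genes, treated rats lay 0.352, 0.705, 0.004 and 0.307 above the control mean (replicates 1 to 4), and control rats at 0.143, 0.135, -0.261 and -0.018. Treated replicate 2 was the highest treated rat for 4 of 5 genes, treated replicate 3 the lowest for 4 of 5, and control replicate 3 the lowest control for 3 of 5. Treated replicate 2 had the lowest quality weight (0.541). Other classes had such arrays too: control replicate 1 was the highest control for 4 of 4 assembly genes. Treated replicate 3 was the highest treated rat for 7 of 10 non-ATPases. The same share over all probes is not given here. The median difference of the class was 0.16 without treated replicate 2, and 0.19 without the arrays numbered 2 of both groups. In bulk muscle, a change in the number of cells of a type and a change in RNA per cell cannot be told apart.

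Whether the immunoproteasome subunits differed more than the subunits they replace was asked within each array, as the log2 ratio of one probe to the other. There were 3 such comparisons, tested by exact permutation of the rats (two-sided), which cannot give a p under 0.0286. The ratio of Psmb9 to Psmb6 differed by 0.42, with 3 of 4 treated rats above every control (exact p = 0.0857, 0.257 adjusted over the 3 comparisons). Set 1 alone gave 0.43 and set 2 alone 0.41. The ratio of Psmb10 to Psmb7 differed by 0.21 (exact p = 0.486, adjusted 0.729), with 0.45 in set 1 and -0.030 in set 2. The ratio of Psmb8 to Psmb5 differed by 0.083 (exact p = 0.971, adjusted 0.971). None of the 3 ratios differed beyond the spread between rats by this test.

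The sequences just before these 6 genes are given to set the interferon-induced subunits beside those they replace. They are RefSeq sequences of GRCr8, up to 250 bases before the annotated start, less any base inside the annotated gene. Psmb8 is chr20:4657050-4657281, minus strand. Psmb9 is chr20:4668750-4668951, plus strand. Psmb10 is chr19:50743293-50743542, minus strand. Psmb5 is chr15:32047380-32047629, minus strand. Psmb6 is chr10:55737638-55737851, plus strand. Psmb7 is chr3:42827471-42827720, minus strand. Each runs 5′ to 3′ on the strand of its gene. Capitals mark matches, on either strand, to the core of the interferon-stimulated response element (a pair of GAAA words with 2 bases between them), the core of the antioxidant response element (TGANNNNGC) and the CCAAT box (CCAAT).
Psmb8: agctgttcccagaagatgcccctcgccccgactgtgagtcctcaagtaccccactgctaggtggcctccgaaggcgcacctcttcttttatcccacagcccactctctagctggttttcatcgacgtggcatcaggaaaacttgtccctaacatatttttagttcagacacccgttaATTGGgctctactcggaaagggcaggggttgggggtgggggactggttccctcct
Psmb9: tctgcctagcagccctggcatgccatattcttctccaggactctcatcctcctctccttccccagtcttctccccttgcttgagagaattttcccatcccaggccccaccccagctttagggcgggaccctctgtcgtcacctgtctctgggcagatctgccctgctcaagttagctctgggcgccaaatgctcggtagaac
Psmb10: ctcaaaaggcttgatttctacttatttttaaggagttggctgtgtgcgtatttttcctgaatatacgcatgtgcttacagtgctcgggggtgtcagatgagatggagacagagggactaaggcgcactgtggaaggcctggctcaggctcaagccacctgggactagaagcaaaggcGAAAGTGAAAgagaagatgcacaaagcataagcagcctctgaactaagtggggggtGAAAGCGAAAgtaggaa
Psmb5: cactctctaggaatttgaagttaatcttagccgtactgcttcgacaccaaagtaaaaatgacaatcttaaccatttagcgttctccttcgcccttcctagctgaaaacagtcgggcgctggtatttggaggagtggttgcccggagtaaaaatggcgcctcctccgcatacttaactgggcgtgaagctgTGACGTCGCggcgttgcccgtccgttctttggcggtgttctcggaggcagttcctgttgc
Psmb6: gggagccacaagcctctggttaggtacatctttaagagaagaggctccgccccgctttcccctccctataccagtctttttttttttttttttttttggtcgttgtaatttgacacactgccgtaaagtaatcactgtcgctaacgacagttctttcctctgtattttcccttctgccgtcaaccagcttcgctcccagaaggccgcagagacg
Psmb7: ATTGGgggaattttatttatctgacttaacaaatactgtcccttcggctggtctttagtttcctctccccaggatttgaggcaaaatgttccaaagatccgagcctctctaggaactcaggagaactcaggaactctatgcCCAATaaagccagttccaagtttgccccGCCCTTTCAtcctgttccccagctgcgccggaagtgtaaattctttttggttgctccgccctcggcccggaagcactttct

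Psmb10 held 2 matches to the interferon-stimulated response element core, GAAAGTGAAA and GAAAGCGAAA. Psme2 held 1, GAAAGCGAAA, which lies inside its annotated gene and is named without its surroundings. Psmb8, Psmb9 and Psme1 held 0 in this window, and so did Psmb5, Psmb6 and Psmb7. Over 38 proteasome genes with a sequence, 5 (13.2%) had such a match, and 3.29% of 27457 promoters did. Besides Psmb10 and Psme2 these were the constitutive genes Psma4, Psmb3 and Psmd7. The antioxidant response element core was found in 42.1% of the 38 and in 34.6% of all promoters. It was present in Psmb5 (TGACGTCGC), Psmb6 (TGACGGAGC) and Psmb7 (GCCCTTTCA, read on the opposite strand), and in Psmb9 (TGATGGGGC). In Psmb6 and Psmb9 it lies inside the annotated gene and so is not in the sequences printed. The CCAAT box was found in 42.1% of the 38 and in 34.3% of all promoters. None of these matches shares a base with another in the 6 sequences. The sequence before Psmb9 overlaps that before Tap1, a peptide transporter subunit gene that runs the other way. Before Tap1 lies 1 match to the interferon-stimulated response element core (TTTCGGTTTC, on the opposite strand), outside the Psmb9 window. A match is a string of letters and does not show binding.

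The constitutive core particle had a median difference of 0.095, with 11 of 14 genes above control. All 7 beta genes lay above control (median 0.13), and so did 4 of 7 alpha genes (median 0.072). Within set 1 it was 5 of 7 in either ring, and within set 2 it was 7 of 7 beta and 4 of 7 alpha genes. The rings were not tested against each other. As deviations from the control mean of each gene, the 14 genes averaged 0.10 ± 0.030 (SD, n = 4) in treated rats. The control average is 0 by construction, with an SD of 0.050. The groups overlapped, with control replicate 1 at 0.070 and treated replicate 3 at 0.061. Every gene of the core had an unadjusted p above 0.05.

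Of the catalytic beta subunits, Psmb5 (chymotrypsin-like site) measured 12.16, 11.996, 12.13 and 12.29 in control rats and 12.19, 12.35, 12.26 and 12.41 in treated rats. All 4 treated rats lay above the control mean, but only 2 above every control, and the difference was 0.16 (SE 0.11). Psmb6 (caspase-like site) measured 12.45, 12.32, 12.17 and 12.25 against 12.47, 12.71, 12.36 and 12.38 in treated muscle, a difference of 0.18 (SE 0.12). Psmb7 (trypsin-like site) measured 12.41, 12.21, 12.28 and 12.35 against 12.29, 12.25, 12.45 and 12.62, a difference of 0.089 (SE 0.12). For each of these subunits the groups overlapped. Psmb6 differed by 0.11 without treated replicate 2 and Psmb7 by 0.016 without treated replicate 4, and without the arrays numbered 2 Psmb5 differed by 0.091 and Psmb6 by 0.11. The 95% confidence interval of Psmb5, -0.089 to 0.40, leaves room for a fold of 0.94 to 1.32.

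Among the structural subunits, Psmb3 measured 11.34, 11.49, 10.99 and 11.42 in control and 11.66, 11.70, 11.42 and 11.41 in treated muscle, a difference of 0.24 (SE 0.14). Treated replicates 1 and 2 lay above every control, and without control replicate 3 the difference was 0.13. Psmb4 was the core gene whose groups did not overlap, which held in that direction for 1.7% of all probes. Control rats measured 12.44, 12.44, 12.44 and 12.45, and treated rats 12.68, 12.51, 12.53 and 12.55. The difference was small, 0.13 (SE 0.095), with an unadjusted p of 0.21. Its narrow control values follow from rank: quantile normalization gives probes of one rank one value, and Psmb4 ranked number 539 on 3 control arrays and number 534 on the other. In the authors' normalized table and with median scaling the groups overlapped. Psma4, an alpha subunit, measured 11.34, 11.09, 11.26 and 11.35 in control and 11.47, 11.35, 11.24 and 11.69 in treated muscle (difference 0.17, SE 0.13, and 0.091 without treated replicate 4).

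The other core genes differed by -0.067 to 0.19. A pair of alpha subunits varied by set and were chosen after their values were seen. Psma1 had a difference of 0.40 in set 1 but -0.023 in set 2: treated replicates 1 and 2 measured 10.42 and 10.50 against 9.82 to 10.09 in the 6 other rats. For Psma3 the difference was -0.40 within set 1 and 0.26 within set 2. The beta genes Psmb1 and Psmb2 differed by 0.083 and 0.082, and the alpha genes Psma5 and Psma6 by 0.10 and 0.072. Psma2 and Psma7 differed by -0.0087 and -0.014.

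Of the 4 classes the regulatory particle had the smallest shift, with a median difference of 0.044 and 11 of 16 genes above control. The median was 0.028 for the 6 ATPases and 0.055 for the 10 non-ATPases. Psmc3 (Rpt5), an ATPase of the base, had the largest difference of the 6 ATPases. It measured 9.45, 9.62, 9.50 and 9.61 in control muscle and 9.73, 10.07, 9.68 and 9.89 in treated muscle. Every treated rat thus lay above every control, which held for 1.7% of all probes. The means were 9.84 ± 0.18 (SD, n = 4) and 9.54 ± 0.083, a difference of 0.30 (SE 0.12) or 1.23-fold. The unadjusted p was 0.032 and the adjusted p 0.9999 with limma. Its difference was 0.37 in set 1 and 0.24 in set 2, and with median scaling the groups overlapped.

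The 5 other ATPases of the ring differed by -0.063 to 0.056. Psmc6 (Rpt4) measured 8.27, 8.22, 8.41 and 8.22 in control and 8.45, 8.31, 7.96 and 8.15 in treated muscle, a difference of -0.063 (SE 0.13). Psmc5 (Rpt6) measured 10.98, 10.74, 11.06 and 11.15 against 11.004, 10.79, 11.19 and 11.17, a difference of 0.056 (SE 0.14), and the arrays numbered 2 were the lowest in both groups. The subunits Psmc1, Psmc2 and Psmc4 differed by 0.046, 0.010 and -0.028. These ATPases assemble in one ring with Psmc3. Of the 6, Psmc3 was the one whose groups did not overlap, beside 2 of 40 proteasome genes (5%) and 1.7% of all probes. Psmc3 was not tested against the others.

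Of the non-ATPases, Psmd12 (Rpn5), a lid subunit, measured 11.39, 11.67, 11.66 and 11.63 in control and 11.71, 11.65, 11.89 and 11.81 in treated muscle. The difference was 0.18 (SE 0.11), and control replicate 1 was far below the other controls. Without that rat the difference was 0.11. Psmd13 (Rpn9) differed by 0.093 (SE 0.10), from 9.29 to 9.47 in control and from 9.39 to 9.58 in treated rats. Psmd1 (Rpn2), the scaffold of the base, differed by 0.087 (SE 0.11), from 10.70 to 10.94 in control and from 10.75 to 10.99 in treated rats. Psmd7 (Rpn8), partner of the deubiquitinase of the lid, differed by -0.078 (SE 0.098), from 12.29 to 12.40 in control and from 12.19 to 12.38 in treated rats. For these genes the groups overlapped, and no adjusted p was below 0.9999. The scaffold Psmd2 (Rpn1) and the ubiquitin receptor Psmd4 (Rpn10) differed by -0.00060 and 0.040. The remaining subunits Psmd3, Psmd6, Psmd8 and Psmd11 differed by -0.053 to 0.17. Within set 1 the median of the regulatory particle was -0.0048, and without treated replicate 3 it was 0.0052, so its sign rests on small differences.

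**Figure D3:**
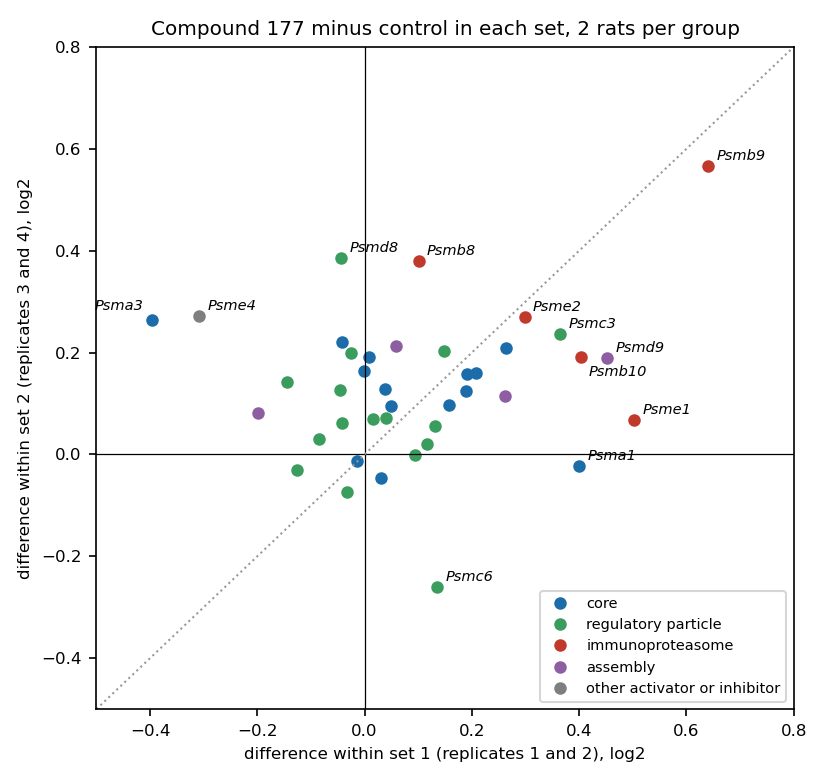
Difference between compound 177 and control within set 1 (horizontal axis) and within set 2 (vertical axis), log2, with 2 rats per group in each, for the 40 detected proteasome genes. The dotted line marks equal differences. All 5 immunoproteasome genes lie at upper right with Psmb9 furthest out, and Psma3 and Psme4 lie at upper left.

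The assembly factors had a median difference of 0.16, with 3 of 4 genes above control. Psmd9 (p27), a chaperone of the ATPase ring, measured 7.20, 6.91, 6.91 and 7.10 in control and 7.56, 7.45, 7.16 and 7.22 in treated muscle. Of the treated rats 3 lay above every control, and replicate 3 lay between control values. The difference was 0.32 (SE 0.13, 1.25-fold), with 0.45 in set 1 and 0.19 in set 2. The unadjusted p was 0.036 and the adjusted p 0.9999 with limma, and without background correction the difference was 0.20. Psmg1 and Psmg2, which together guide assembly of the alpha ring, differed by 0.19 (SE 0.13) and 0.13 (SE 0.11). Psmg1 ran from 10.71 to 11.16 in control and from 10.99 to 11.29 in treated rats, and Psmg2 from 7.75 to 7.94 and from 7.83 to 8.08. Psmd5 (S5b), another chaperone of the base, differed by -0.059, from 8.37 to 8.62 in control and from 8.15 to 8.71 in treated rats. Without control replicate 2 the median of the class was 0.11 and the Psmg1 difference 0.11, and without the arrays numbered 2 they were 0.081 and 0.056.

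Psme4 (PA200), an activator that binds the core in the place of the regulatory particle, had a difference near 0. It measured 12.79, 12.71, 12.23 and 12.15 in control and 12.40, 12.48, 12.63 and 12.29 in treated muscle, a difference of -0.019 (SE 0.17, 95% confidence interval -0.40 to 0.36), an interval that holds the median of every class. The control rats split by set, and the difference was -0.31 in set 1 and 0.27 in set 2.

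Other genes of the ubiquitin-proteasome system gave no member that passed limma's adjusted test in either direction. Of 5 measured proteasome partners without a Psm symbol, 3 lay above control (median 0.009). Pomp, the chaperone that matures the beta rings, measured 8.41, 8.29, 8.21 and 8.13 in control and 8.69, 8.75, 8.49 and 8.38 in treated muscle (difference 0.32, SE 0.12). Treated replicates 1 to 3 lay above every control. Usp14, the deubiquitinase bound to the proteasome, differed by 0.075 (SE 0.11). Of 6 measured genes on a list of regulators of proteasome genes, 1 lay above control (median -0.13). Whether these genes act on proteasome genes in this muscle was not tested. Maf, a leucine zipper factor, measured 10.32, 10.18, 10.26 and 9.97 in control and 9.57, 9.96, 9.74 and 9.92 in treated muscle (difference -0.39, SE 0.13). Its groups did not overlap, which held in that direction for 0.705% of all probes. Mafk, a small Maf protein that pairs with the Nrf factors, differed by -0.20 (SE 0.15), and Nfe2l1 was not analysed here.

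Muscle ubiquitin ligases were spread around 0, with 5 of 11 above control and a median of -0.009. Asb2 and Cul3 had the smallest p of this list, with differences of -0.19 (SE 0.13) and -0.20 (SE 0.15). The shuttle and segregase genes lay above control in 7 of 11 cases (median 0.043), with Ubqln4 at 0.19 (SE 0.14) and Ubqln2 at -0.17 (SE 0.14). Of the ubiquitin and E1 genes 2 were measured, Uba3 at -0.023 (SE 0.16) and Uba6 at -0.0079 (SE 0.22).

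Genes of class I antigen presentation, which uses peptides cut by the immunoproteasome, lay above control in 8 of 12 cases (median 0.099), with 0 passing. Tapbp (tapasin), which loads peptide onto class I molecules, measured 7.19, 6.77, 7.15 and 7.08 in control and 7.35, 7.24, 7.60 and 7.41 in treated muscle. Its groups did not overlap, which held in that direction for 1.7% of all probes. The difference was 0.36 (SE 0.13, adjusted p = 0.9999 with limma). RT1-S3, a class I molecule, ran from 8.74 to 8.90 in control and from 8.96 to 9.11 in treated rats (difference 0.19, SE 0.099). Class I genes of the rat are close copies, so their probes may read more than one. Tap1, the neighbour of Psmb9 and named for that reason, was above background on 4 of 8 arrays and differed by -0.093 (SE 0.19). Of 23 interferon response genes with a probe, 14 were detected on enough arrays to be tested. Cxcl10, Gbp5, Irf8, Isg15 and Usp18 were on no array above background. Of the 14 tested, 13 lay above control (median 0.20) and 0 passed, where 53.4% of all probes lay above control. Some of them were near background: Oasl, Irf7 and Mx2 were above it on 4, 5 and 6 of 8 arrays. Ifi35 differed by 0.40 (SE 0.17) and Ifit1, above background on 5 of 8 arrays, by -0.83 (SE 0.35). Relative to the control mean, the interferon list averaged 0.003, -0.041, 0.272 and 0.427 on treated replicates 1 to 4. Control replicates 1 to 4 were at -0.185, -0.039, 0.012 and 0.211. The mean difference of the list was 0.093 in set 1 and 0.238 in set 2. For the immunoproteasome genes, treated replicates 1 to 4 were at 0.352, 0.705, 0.004 and 0.307, and control replicates 1 to 4 at 0.143, 0.135, -0.261 and -0.018.

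Markers of other cells were read beside the immunoproteasome genes. All 7 measured macrophage markers lay below control (median -0.39), with the lowest mean on treated replicate 2 (-1.28), the array on which the immunoproteasome genes were highest. That array also had the lowest quality weight (0.541). On treated replicates 1, 3 and 4 the macrophage mean was 0.198, 0.069 and -0.771. On control replicates 1 to 4 it was 0.219, 0.133, 0.140 and -0.492. Sums of intensity in this paragraph are linear values without background correction or normalization, so they also carry background and array scale. For the 8 macrophage markers with a probe the sum ran from 2087 to 3653 in control and from 1346 to 3939 in treated muscle. Of 9 markers of T and NK cells with a probe, 6 were on no array above background (Cd247, Cd3d, Cd3g, Cd8a, Gzmb and Lck), and their summed intensity ran from 834 to 935 in control and from 832 to 1012 in treated muscle. Cd3e, the one tested, measured 5.53, 6.69, 5.65 and 5.70 in control and 5.49, 7.34, 5.49 and 5.71 in treated rats. It was thus highest on the arrays numbered 2, as was Psmb8 in both groups. Class II and dendritic markers had 3 of 4 genes above control (median 0.13), with Ciita and Flt3 on no array above background and a summed intensity of 2083 to 3485 in control and 1651 to 3839 in treated rats. Of the B cell markers 1 was tested (0.070), and Ms4a1 was on no array above background. Endothelial markers had 3 of 5 genes above control (median 0.035), and blood markers 1 of 3 (median -0.28). Of the neutrophil markers 0 of 5 passed the filter. Muscle fibre markers had 2 of 6 genes above control (median -0.040). The part of any of these cells in the immunoproteasome values was not tested.

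**Figure D4:**
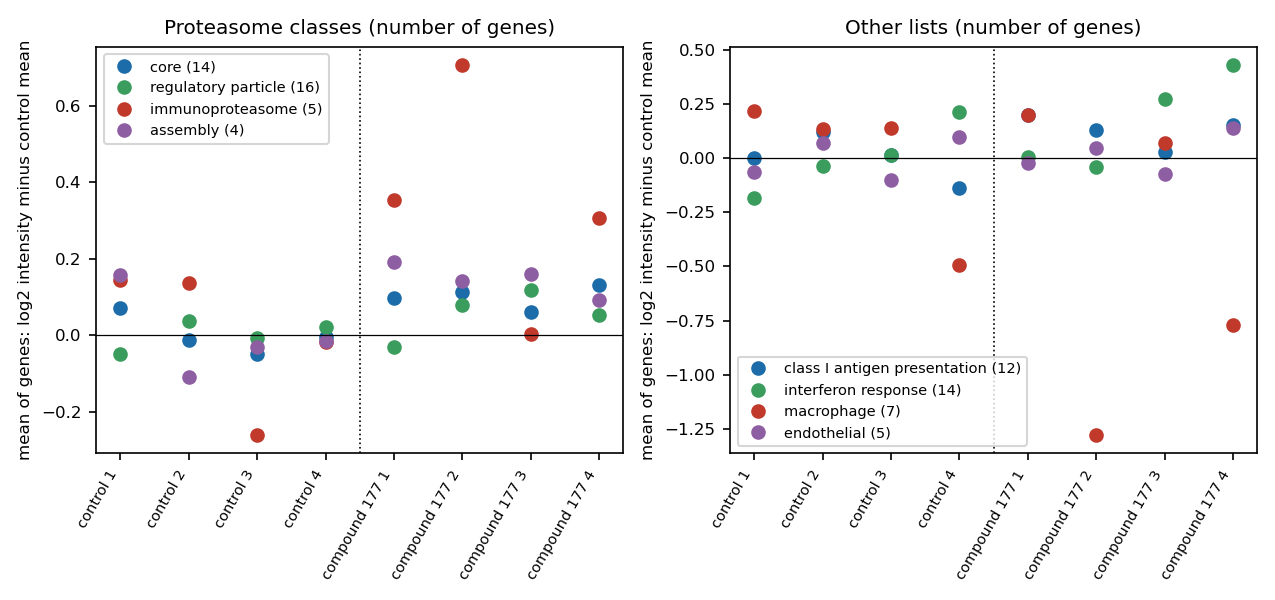
Mean over the genes of a class or list of log2 intensity minus the control mean (vertical axes) on each array (horizontal axes), for the proteasome classes at left and 4 other lists at right, with the number of genes in brackets. On treated replicates 1 to 4 the immunoproteasome mean is 0.352, 0.705, 0.004 and 0.307, and the macrophage mean 0.198, -1.28, 0.069 and -0.771.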

How the data were processed

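The authors deposited a non-normalized table of linear intensity per probe and array, with a detection p-value beside each intensity, per the file headers. Their deposited normalized intensity table has identical sorted values within 2 sets of 4 arrays, and the series' value table equals it. No source used here gives the scanner software or the authors' background step. RNA was labelled with biotin as cRNA, per the labels' protocols.

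Intensities were corrected and quantile-normalized with neqc of limma 3.58.1 (R 4.3.3; background inferred from detection p-values, offset 16) and taken to log2. Testing was limited to probes detected (p below 0.05) on 4 or more of the 8 arrays, which left 10212 of 22523 probes. Symbols came from the platform annotation: 13793 probes had 1 symbol and 8730 had none. A gene with several probes was counted by its brighter probe. Groups were compared with lmFit and eBayes, adjusted by Benjamini-Hochberg over all tested probes at 0.05. The fit was also run on simulated data with independent noise. The shifts added there were larger than most proteasome differences here, so detection of such small differences was not checked. The design text gives 4 rats per group. Precision is limited by that number. Deviations of arrays sharing a replicate number correlated at 0.24, 0.47, 0.12 and 0.43. The labels do not state pairs. Arrays of unlike numbers in one set were not compared this way, so number and set cannot be told apart here. The main fit and the main permutation of the ratios were unpaired. Pairs by number were used only in the replicate block.

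Members and lists were chosen with earlier results of these data known. Named genes were the immunoproteasome genes, the subunits they replace, Psme4, and the smallest p per class and list (3 core, 3 ATPase, 4 non-ATPase and 3 assembly genes, and up to 2 per other list). Promoters came from RefSeq (GRCr8), and 38 of 42 genes matched by gene identifier. Many proteasome genes have pseudogenes in that annotation, and cross-hybridization was not tested. Alternatives were background, offset, scaling, the authors' table, filters, blocks, sets, array weights and left-out arrays.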

Additional observations from a re-analysis of the deposited data

Results flagged for a closer look

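Within the groups of 4 rats, 60 sets of values were checked for a rat far from the others, and 2 stood out, where chance gives about 1 in 20. Control replicate 4 of Psmb4 measured 12.45 and the other controls 12.44, a gap that is large only beside 3 equal normalized values. Control replicate 1 of Psmd12 measured 11.39 and the other controls 11.63 to 11.67.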

How the results depend on the processing

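In all settings 0 probes were called. The core median was 0.16 with median scaling, 0.043 within set 1 and 0.14 within set 2, in place of 0.095. With 1 array left out at a time, the medians ran from 0.064 to 0.13 for the core, from 0.0052 to 0.075 for the regulatory particle, from 0.16 to 0.39 for the immunoproteasome and from 0.11 to 0.21 for the assembly factors. Leave-one-out runs gave ratios of -0.14 to 0.30 for Psmb8 to Psmb5, 0.29 to 0.57 for Psmb9 to Psmb6 and 0.019 to 0.35 for Psmb10 to Psmb7. The Psmb8 to Psmb5 ratio turned to -0.089 within set 1, to -0.143 without control replicate 3 and to -0.084 without compound 177 replicate 2. The Psmb10 to Psmb7 ratio turned to -0.030 within set 2. With median scaling 36 of 40 genes lay above control in place of 30. Signs of small differences also turned: within set 1, Psmb7 (-0.043), Psmc6 (0.14) and Psmd1 (-0.025); Psmc6 without compound 177 replicate 3 (0.022) and Psmc5 without control replicate 2 (-0.026). Psme4 turned under median scaling (0.052), within set 2 (0.27), with array weights (0.039), without control replicate 1 (0.089) or 2 (0.061), without compound 177 replicate 4 (0.035; lowest value with 1 array left out -0.125) and without the arrays numbered 2 (0.051). The cause was not tested. The replicate block kept all medians and differences (core 0.095, Psmb9 0.60) and gave 657 unadjusted p below 0.05 in place of 396. For the ratios the block gave exact p of 0.25 for Psmb9 to Psmb6, 0.375 for Psmb10 to Psmb7 and 1.0 for Psmb8 to Psmb5, a design of 4 pairs that cannot reach 0.05. Array weights were not run for the ratios.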
